A study of Mus musculus with 6 samples.

Results

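Calcium inside brain cells is held in the endoplasmic reticulum (ER), and the cell both releases it from this store and refills the store from outside. Release runs through inositol trisphosphate (IP3) receptors, which open after activation of phospholipase C by cell surface receptors, and through ryanodine receptors, which open on calcium itself. When the store is empty, STIM proteins in the ER membrane sense the loss and open ORAI channels in the plasma membrane, which is called store-operated calcium entry (SOCE). In the hippocampus, both release and entry shape synaptic signals in neurons and calcium waves in astrocytes, and the study asked whether the glutamate transporter GLT-1 is tied to the STIM1/Orai1 machinery. The mRNA of 10 genes of this machinery was therefore followed here, namely Stim1 and Stim2, Orai1 to Orai3, the IP3 receptors Itpr1 to Itpr3, and the ryanodine receptors Ryr2 and Ryr3. These genes were taken by symbol from the deposited table of 54532 genes, and all 10 were found once and passed the filter on low values.

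Hippocampal RNA was sequenced from 3 wild-type (WT) mice and 3 transgenic (TG) mice, and the libraries are named WT1, WT2 and WT3, or TG1, TG2 and TG3. In TG mice, Cas9 editing of C57BL/6N eggs had altered the endogenous Slc1a2 gene, which encodes GLT-1, so that the protein carries G82R together with L85P, and founders were mated with C57BL/6 mice. The change is thus present in all cells and not limited to astrocytes, and WT littermates were the controls of the study. From Western blots of the hippocampus, the paper reported less GLT-1 and Orai1 protein in TG mice, and no decrease of STIM1. The values below are of mRNA and do not measure protein. The titles number the mice but do not say whether a library pools animals, and p-values measure the spread between these libraries. The labels give no age and no treatment other than the genotype, and whether the sequenced TG mice were heterozygous or homozygous is not given in the sources used here. The authors deposited FPKM, read numbers divided by gene length and by library size. Levels of genes of different length can thus be set side by side only roughly, and some libraries kept a trend on gene length, given below. For the genes followed here, except Itpr3, the length used equals all annotated exon bases of the gene. FPKM is too low where the tissue does not use some of these exons, which was not tested. Groups were compared with limma on log2(FPKM + 0.1) over 20952 genes whose FPKM averaged 0.1 or more, and the differences below are TG minus WT on this scale.

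The libraries held between 16081281 and 18751057 reads on genes, and the 10 genes of interest had between 105 and 8807 reads per library. Slc1a2 itself had 202, 199.5 and 177 FPKM in the WT group, against 222, 207 and 217 in the TG group, with a fold of 1.12 (95% interval 0.972 to 1.28, limma adjusted p = 0.789), and FPKM cannot show the base changes. Markers of dentate granule cells, CA1 and CA3 pyramidal cells and astrocytes were measured in every library, whereas 5 cerebellar markers summed to only 0.792 to 2.74 FPKM. Xist was at most 0.0181 FPKM and the Y-linked gene Ddx3y between 10.6 and 12.3 FPKM in all 6 libraries. Libraries TG1 and TG2 stood apart through the choroid plexus, a tissue that secretes cerebrospinal fluid. Its 15 marker genes summed to 1348 and 4218 FPKM there, against 83.2 to 112 in the other 4 libraries. Each of these markers was detected in at least 1 library. Library WT3 stood apart by gene length. Its genes of at least 16000 bases whose FPKM averaged 1 or more (268 genes) lay at a median of -0.28 from the mean of the 6 libraries on the log2 scale, and its genes under 1000 bases at 0.22. The opposite trend was seen in TG1, with medians of 0.12 and -0.19. The release channels are long genes, with exons that add up to between 8990 bases in Itpr3 and 28790 bases in Ryr2.

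Among the 10 genes, Orai2 was the most abundant mRNA in WT mice, with an FPKM of 33.8 ± 3.76 (SD, n = 3), followed by Stim2 with 24.2 ± 2.39 and Itpr1 with 22.97 ± 2.32. Stim2 and Itpr1 overlapped, and Itpr1 was the higher of the pair in 4 of 6 libraries. Orai3 (12.8 ± 1.53), Ryr2 (10.1 ± 2.50) and Stim1 (8.09 ± 1.198) formed a middle group in which the ranges of neighbours overlapped. Within libraries, Orai3 was above Ryr2 in 4 of 6, and Ryr2 was above Stim1 in 6 of 6. Orai1 and Ryr3 came next, at 4.30 ± 0.105 and 3.57 ± 1.07, and overlapped as well. Itpr2 (1.84 ± 0.211) and Itpr3 (0.784 ± 0.138) were the lowest, and each was separated from its neighbour above in all 6 libraries. The gene with the highest FPKM in each family was therefore Orai2 for the channels, Stim2 for the sensors, Itpr1 for the IP3 receptors and Ryr2 for the ryanodine receptors. In rank among all genes tested, Orai2 stood at the 93.3 percentile and Itpr3 at the 35.5 percentile of mean FPKM.

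**Figure D1:**
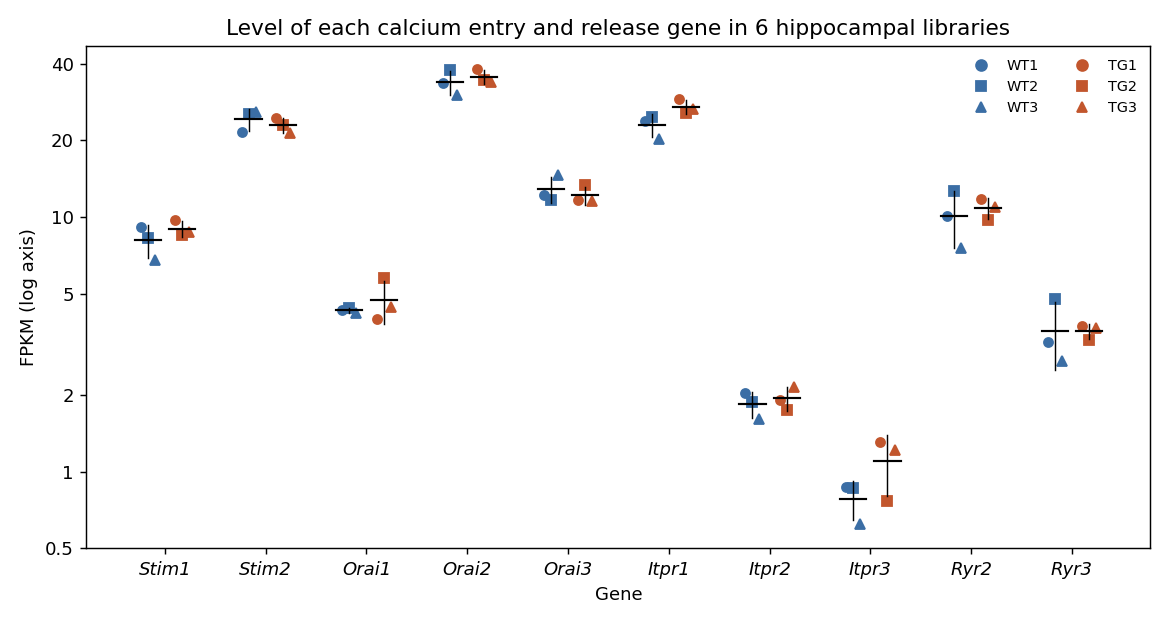
FPKM of the 10 genes on a log axis, with 1 symbol per library (WT blue, TG orange), a horizontal line at the mean and a vertical line of 1 SD (n = 3). Levels run from Orai2 at 33.8 down to Itpr3 at 0.784 FPKM in WT mice, and Itpr1 is the only gene whose TG libraries all lie above its WT libraries.

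None of the 10 genes differed between TG and WT mice at an adjusted p under 0.05 in limma (smallest adjusted p 0.786). Over all genes, 2 of 20952 passed this threshold (0.00955%), 1 higher and 1 lower in TG mice (0.00477% each). At an unadjusted p under 0.05, 1 of the 10 genes was called, Itpr1, against 5.91% of all genes tested, so this count is near the background. The TG libraries did not overlap with the WT libraries in 1 of the 10 genes, again Itpr1, against 12.1% of all genes (6.35% with TG above and 5.71% with TG below). Fitted differences were above 0 in 8 of the 10 genes, with a median of 0.09, beside 49.6% of all genes and a median of -0.0020. Without WT3, 5 of 10 were above 0 and the median was 0.0093. After each library was corrected for its trend on gene length, an alternative chosen after seeing the data, 5 of 10 were again above 0 and the median was 0.0091.

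**Figure D2:**
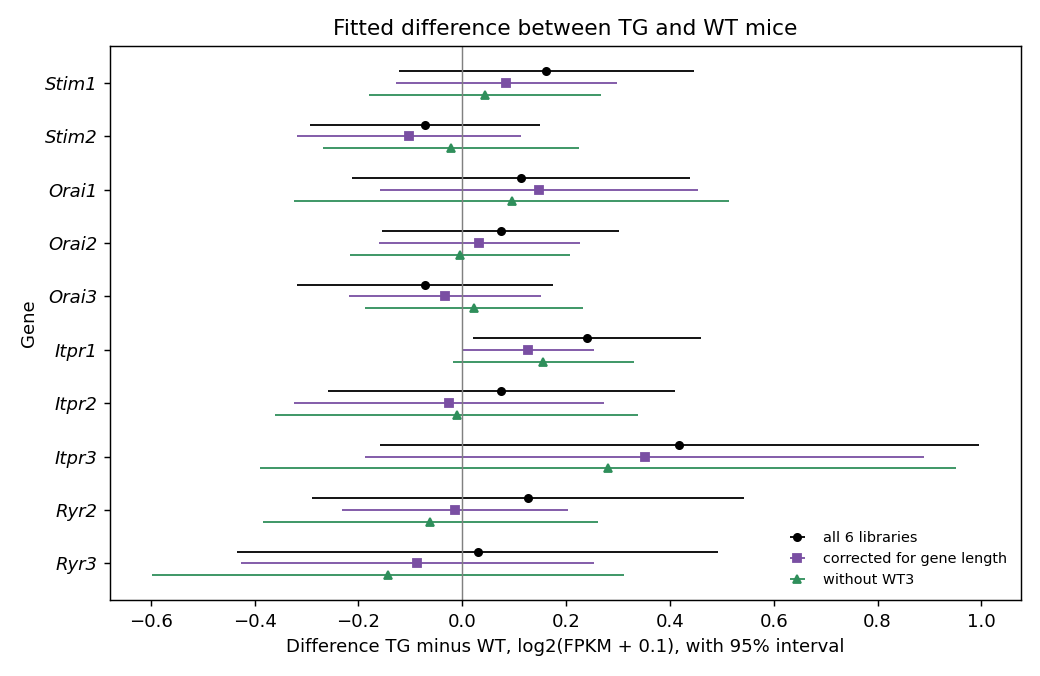
Fitted difference TG minus WT on log2(FPKM + 0.1) for each gene with its 95% interval from limma, for all 6 libraries (black), after the correction for gene length (purple) and without WT3 (green). With all libraries only the interval of Itpr1, from 0.02 to 0.46, lies clear of 0, and it includes 0 in both alternatives.

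The sensors of the ER store were compared first. Stim1 (ENSMUSG00000030987, chromosome 7 from 102267806 to 102437319, plus strand, GRCm38) encodes the sensor that gates Orai1. Its FPKM was 9.17, 8.29 and 6.80 in the WT group, against 9.75, 8.53 and 8.74 in the TG group. WT3 had the lowest value, the other 5 libraries lay between 8.29 and 9.75, and the groups overlapped. The difference was 0.16 (standard error 0.121, limma adjusted p = 0.789), a fold of 1.12 with a 95% interval from 0.918 to 1.36. Without WT3 it was 0.04, so its size depended on that library. Stim2 (ENSMUSG00000039156, chromosome 5 from 53998499 to 54121057, plus strand) encodes the paralog that responds to smaller losses of ER calcium and is known as the main form in neurons. Its values were 21.5, 25.3 and 25.8 FPKM for WT, against 24.6, 23.0 and 21.4 FPKM for TG. Both groups covered nearly the same range, and the fold was 0.952 with an interval from 0.816 to 1.11 (limma adjusted p = 0.856). Stim2 mRNA was above Stim1 mRNA in each of the 6 libraries, and on average Stim1 made up 26.6% of the FPKM of both sensors. Mean reads per library were 1548 for Stim1 and 2120 for Stim2. The share thus depends on the exon lengths used, 10371 bases for Stim1 and 5133 for Stim2.

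The channels of the plasma membrane were compared next. Orai1 (ENSMUSG00000049686, chromosome 5 from 123015074 to 123030456, plus strand) encodes the pore of the classical store-operated channel. WT libraries had 4.31, 4.40 and 4.19 FPKM, against 3.97, 5.74 and 4.44 FPKM for TG. TG1 was the lowest and TG2 the highest of all 6, so the WT range lay inside the TG range. The fold was 1.08 with a 95% interval from 0.863 to 1.36 (limma adjusted p = 0.844), and without TG2 the log2 difference turned from 0.11 to -0.03. Orai1 rested on only 144 to 236 reads per library, for which counting alone gives a coefficient of variation of 7.42%. The spread among WT libraries (2.43%) was smaller than this and that among TG libraries (19.5%) was larger. TG2, with the high value, was also the library with the most choroid plexus RNA, whereas TG1, with the next most, had the lowest Orai1, and the part of that tissue in Orai1 was not tested.

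Orai2 (ENSMUSG00000039747, chromosome 5 from 136147459 to 136170713, minus strand) encodes a paralog that joins Orai1 in mixed channels and is prominent in brain. Its values were 33.5, 37.8 and 30.3 FPKM for WT, against 38.2, 34.5 and 33.8 FPKM for TG, with overlapping groups. The fold was 1.05 (95% interval 0.899 to 1.23), and without WT3 it was 0.997. Orai3 (ENSMUSG00000043964, chromosome 7 from 127769815 to 127775150, plus strand), the third channel subunit, had 12.3, 11.7 and 14.6 FPKM for WT, against 11.7, 13.3 and 11.6 FPKM for TG. Here WT3 was the highest library, and the fold was 0.952 (95% interval 0.802 to 1.13) with all libraries and 1.02 without WT3. Orai3 is the shortest of the 10 genes with 2141 exon bases, and the libraries WT3 and TG1 stood on opposite sides of its mean from where they stood for the long release channels. Over the 3 genes, Orai2 made up 67.0%, Orai3 24.3% and Orai1 8.72% of the ORAI FPKM on average.

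Itpr1, which encodes the main IP3 receptor of neurons, had the smallest p among the 10 (ENSMUSG00000030102, chromosome 6 from 108213096 to 108551109, plus strand). WT libraries had 23.9, 24.7 and 20.3 FPKM, against 29.0, 25.7 and 26.6 FPKM for TG. The groups did not overlap, but TG2 exceeded WT2 by less than 1 SD of the WT libraries. The mean was 22.97 ± 2.32 for WT against 27.1 ± 1.74 for TG (SD, n = 3 each). This is a log2 difference of 0.24 (standard error 0.0935) and a fold of 1.18 with a 95% interval from 1.02 to 1.38. The limma adjusted p was 0.786, so the difference did not pass the threshold over all genes, among which Itpr1 ranked 832 by p. Itpr1 has 18319 exon bases, a length at which genes were on the whole low in WT3 and high in TG1. After the correction for gene length the groups were still apart, but the difference was 0.13 (standard error 0.0545), with a 95% interval that just included 0. It was 0.16 without WT3 (95% interval -0.02 to 0.33) and 0.19 without TG1 (-0.07 to 0.45). The unadjusted p was also above 0.05 without WT1 (0.27), without TG3 (0.25) and without the variance trend of limma (0.24), where the values in parentheses are the differences.

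Itpr1 mRNA is known to be rich in CA1 pyramidal cells, and markers of hippocampal fields and of cortical layers are given beside it. The 5 CA1 markers had medians of -0.10, -0.01 and 0.04 for WT and of 0.33, 0.05 and 0.18 for TG, as log2 deviations from the mean over the WT libraries, with sums of 158 to 172 FPKM in WT and 165 to 196 FPKM in TG libraries. TG1 was the highest and TG2 the lowest TG library in both Itpr1 and these markers, whereas WT3 was the lowest WT library in Itpr1 and the highest in the markers. At an unadjusted p under 0.05, 1 of the 5 was higher in TG mice, beside 3.13% of all genes tested that were higher and 2.78% that were lower. The 7 markers of dentate granule cells had medians of -0.17, 0.18 and -0.01 for WT and of -0.31, -0.09 and -0.15 for TG, with sums of 126 to 153 and 119 to 131 FPKM, and 3 of the 7 were lower at this threshold. For 6 CA3 markers the medians were 0.0080, 0.02 and -0.05 for WT and 0.04, -0.11 and -0.12 for TG (sums of 92.1 to 100.3 and 85.6 to 99.1 FPKM), and 1 of the 6 was lower. For 5 markers of cortical layers they were -0.09, -0.05 and 0.0078 for WT and 0.30, -0.01 and 0.47 for TG (sums of 29.6 to 32.3 and 28.4 to 36.6 FPKM), and 2 of the 5 were higher. Each of these markers was detected in at least 1 library. Their part in the level of Itpr1 was not tested, and in tissue RNA more cells of a type and more RNA per cell cannot be told apart.

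Itpr2 (ENSMUSG00000030287, chromosome 6 from 146108299 to 146502223, minus strand) encodes the IP3 receptor that carries most store release in astrocytes, the cells in which GLT-1 is mainly found. Its values were 2.03, 1.87 and 1.61 FPKM for WT, against 1.92, 1.75 and 2.15 FPKM for TG. The groups overlapped over most of their range, and the fold was 1.05 with a 95% interval from 0.835 to 1.33 (limma adjusted p = 0.902). Summed over 9 astrocyte markers, the libraries lay between 523 and 596 FPKM in WT mice and between 523 and 550 FPKM in TG mice.

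Itpr3 (ENSMUSG00000042644, chromosome 17 from 27057304 to 27122223, plus strand), an IP3 receptor best known from epithelia and taste cells, had the lowest level of the 10 genes. With the pseudocount of 0.1 its fitted difference was the largest of the 10, whereas with a pseudocount of 1 it was 0.226, below that of Itpr1 (0.232). WT libraries had 0.866, 0.861 and 0.624 FPKM, against 1.31, 0.763 and 1.22 FPKM for TG. TG1 and TG3 lay above all WT libraries and TG2 lay within the WT range. The log2 difference was 0.42 (standard error 0.246, limma adjusted p = 0.789), a fold of 1.34 with a 95% interval from 0.895 to 1.99. It rested on 105 to 198 reads per library, and without TG2 the difference was 0.64 (95% interval 0.10 to 1.17, limma adjusted p = 0.798). TG2, with the low value, had the most choroid plexus RNA, whereas TG1, with the highest Itpr3, had the next most. TG3, with a high value, had as little as the WT libraries, and the part of that tissue in Itpr3 was not tested. An antisense gene, Itpr3os, covers 233 exon bases of Itpr3, and reads of the 2 genes cannot be told apart where the strand was not counted.

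Ryr2 (ENSMUSG00000021313, chromosome 13 from 11553102 to 12106945, minus strand) encodes the ryanodine receptor of heart muscle, which is also the main form in the hippocampus. Its values were 10.1, 12.6 and 7.59 FPKM for WT, against 11.8, 9.75 and 10.96 FPKM for TG. The WT libraries spanned a wider range than the TG libraries and enclosed all of them. The fold was 1.09 (95% interval 0.819 to 1.46, limma adjusted p = 0.864), and without WT3 it was 0.958. Ryr3 (ENSMUSG00000057378, chromosome 2 from 112631355 to 113217096, minus strand), a form known from CA1, had 3.23, 4.77 and 2.71 FPKM for WT, against 3.73, 3.28 and 3.65 FPKM for TG. Here too WT2 and WT3 were the highest and the lowest library, and the fold was 1.02 with a 95% interval from 0.741 to 1.41. The direction was not stable, since the mean FPKM was 3.57 for WT and 3.55 for TG, and the fold was 0.906 without WT3 and 0.942 after the correction for gene length. The exons of Aven, a gene on the other strand, cover 916 bases or 4.83% of the exon bases of Ryr3.

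Library WT3 was at an extreme in most of the genes. It was the lowest of the 6 libraries in 7 of the 10 genes (Stim1, Orai2, Itpr1, Itpr2, Itpr3, Ryr2 and Ryr3). In Stim2 and Orai3, with 5133 and 2141 exon bases, WT3 was the highest. Stim2 lay at 0.13 in WT3 and Orai2, with 6077 exon bases, at -0.19. The median of genes from 4000 to under 8000 bases was -0.03 there, so Stim2 was above its length class. Orai1, with 2295 exon bases, lay below its mean in WT3 (-0.09), where the median of genes from 2000 to under 4000 bases was 0.08. In WT3, Ryr2 lay at -0.44 and Ryr3 at -0.36 from their means over the 6 libraries, further down than the median of -0.28 for all genes of at least 16000 bases, and Itpr1 lay at -0.29. TG1 was the highest library in 4 of the 10 genes. Ryr2 and Ryr3 ran together over the 6 libraries (Pearson r = 0.93, and 0.92 without WT3), whereas the likeness of Stim1 and Ryr2 (r = 0.74) was -0.03 without WT3. These values describe 6 libraries that share depth and length trends, so no p is given.

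**Figure D3:**
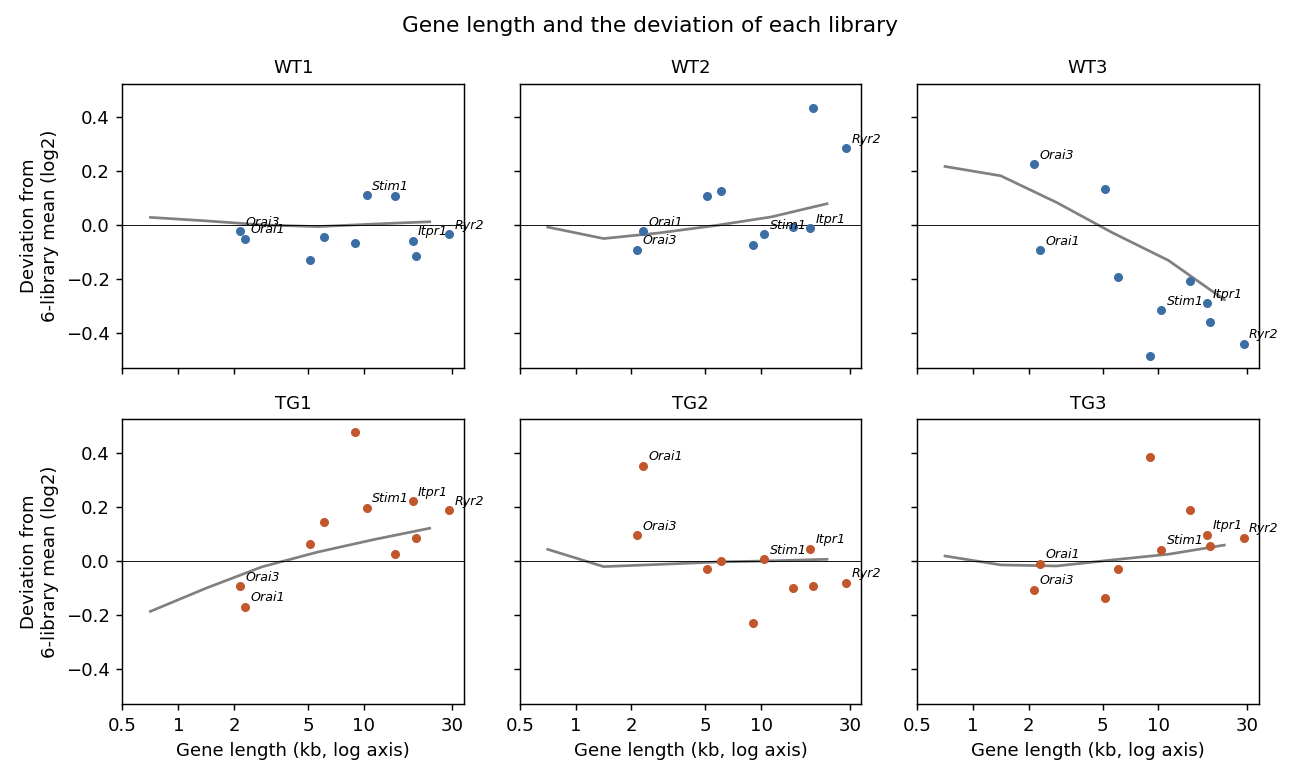
Deviation of each of the 10 genes (points) from its mean over the 6 libraries on log2(FPKM + 0.1), against gene length on a log axis, with 1 panel per library and 5 genes named. The grey line joins the medians of all genes whose FPKM averaged 1 or more in 6 length classes, with the outer classes drawn at chosen midpoints, and it falls with length in WT3, from 0.22 to -0.28, and climbs in TG1, from -0.19 to 0.12.

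Ratios within a library do not depend on its scaling, so the balance between related genes was compared as well, by exact permutation tests over the 6 libraries. They are not free of the trends on gene length where the genes differ in length, as Stim1 (10371 exon bases) and Stim2 (5133) do. With 3 libraries against 3 these tests cannot give a two-sided p under 0.1, and p-values were adjusted over the 6 ratios and shares. The log2 ratio of Stim1 to Stim2 was -1.23, -1.61 and -1.93 for WT, against -1.33, -1.43 and -1.29 for TG, a difference of 0.24 (n = 3 each, exact permutation test, p = 0.4, adjusted p = 0.75). The WT libraries spanned the whole TG range, and without WT3, which had the lowest ratio, the difference was 0.07. The share of Orai1 in the ORAI FPKM was 8.44% ± 0.241 for WT and 8.99% ± 1.67 for TG (SD, n = 3 each, exact permutation test, p = 0.7, adjusted p = 0.84). Itpr1 held 89.8% ± 0.512 of the IP3 receptor FPKM for WT and 89.9% ± 1.17 for TG (SD, n = 3 each, exact permutation test, p = 1, adjusted p = 1). Ryr3 held 26.0% ± 1.63 of the FPKM of Ryr2 and Ryr3 for WT and 24.7% ± 0.598 for TG (SD, n = 3 each, exact permutation test, p = 0.3, adjusted p = 0.75).

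Between the families, the log2 ratio of the summed sensors to the summed channels was -0.66 ± 0.0633 for WT and -0.71 ± 0.0586 for TG (SD, n = 3 each, exact permutation test, p = 0.4, adjusted p = 0.75). That of the summed IP3 receptors to Ryr2 and Ryr3 was 0.93 ± 0.245 and 1.07 ± 0.0385 (SD, n = 3 each, exact permutation test, p = 0.5, adjusted p = 0.75). The groups overlapped in all 6 ratios and shares. Each of the 6 differences was smaller than the larger of the SDs of the groups. The summed FPKM was 32.3 ± 1.52 and 32.0 ± 2.14 FPKM for STIM and 50.98 ± 2.53 and 52.4 ± 2.26 FPKM for ORAI (WT before TG, SD, n = 3 each). For the IP3 receptors it was 26.8, 27.4 and 22.6 for WT, against 32.2, 28.2 and 29.99 for TG, so these groups did not overlap, as in Itpr1, which makes up most of this sum. Ryr2 and Ryr3 together had 13.7 ± 3.55 and 14.4 ± 1.25 FPKM (WT before TG, SD, n = 3 each).

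**Figure D4:**
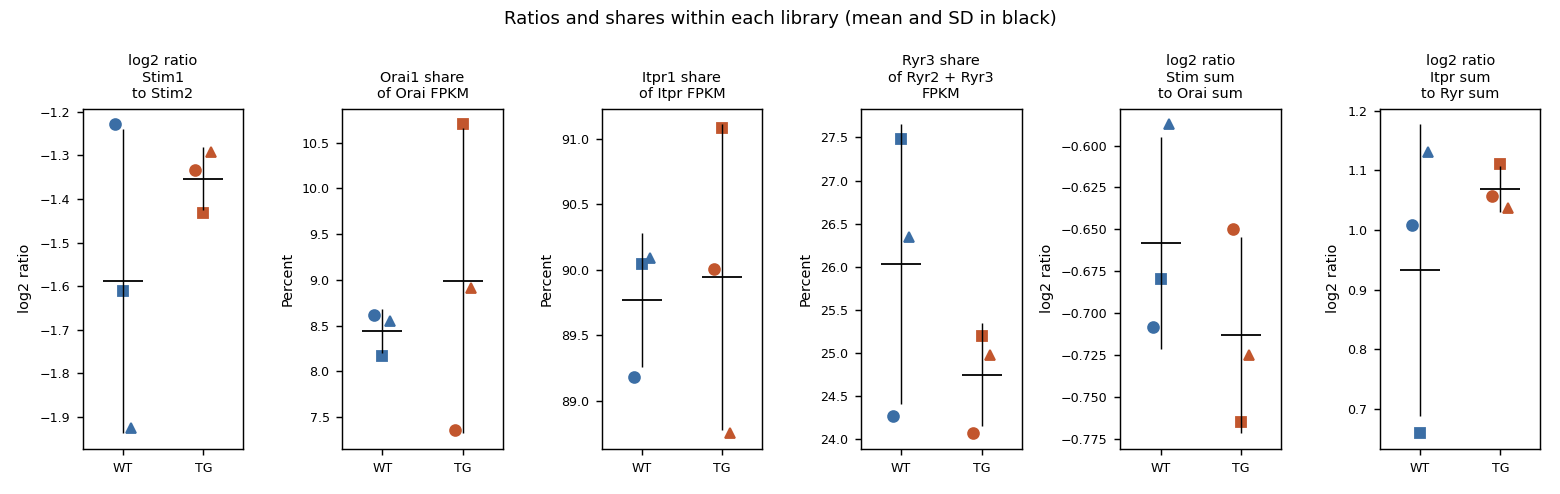
The 6 ratios (log2) and shares (percent) in each library, with circles, squares and triangles for replicates 1, 2 and 3, WT in blue and TG in orange, and the mean with 1 SD in black. Each axis has its own range and does not start at 0. The groups overlap in every panel, as in the Itpr1 share, where the means are 89.8% in WT mice and 89.9% in TG mice.

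Genes that act on this machinery were compared by role, in 10 lists with 116 genes in the table, of which 111 were tested. None had an adjusted p under 0.05 in limma, and 3 (2.70%) had an unadjusted p under 0.05, all lower in TG mice, against 2.78% of all genes tested that were lower at this threshold and 3.13% that were higher. The groups were apart in 10 of the 111 genes, or 9.01%, again near the background of 12.1%. The median difference over the lists was 0.03. The 3 genes were Tmem203, Trpc6 and Ppp3cc.

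TRPC channels and modulators of STIM and ORAI also bear on store-operated entry. Trpc6, a channel opened by diacylglycerol, had 3.91, 4.39 and 4.24 FPKM for WT, against 3.14, 3.52 and 3.64 FPKM for TG. All TG libraries lay below all WT libraries, and the difference was -0.28 (standard error 0.101, limma adjusted p = 0.786). Its unadjusted p was above 0.05 without WT3 (difference -0.26) and without TG1 (-0.22), and under 0.05 after the correction for gene length (-0.31). The median of the 6 TRPC genes tested was -0.09, with 4 of 6 below 0, and their most abundant gene, Trpc1, had 7.29 ± 0.123 FPKM for WT and 6.96 ± 0.323 FPKM for TG (SD, n = 3 each). Among 12 modulators of STIM and ORAI, none had an unadjusted p under 0.05 and the median was 0.03. The most abundant of them was Saraf, a brake on store-operated entry, with 97.3 ± 8.31 FPKM for WT and 89.7 ± 2.95 FPKM for TG (SD, n = 3 each). Esyt2, which tethers the ER to the plasma membrane, had the smallest p here, with a difference of 0.23 (95% interval -0.06 to 0.52).

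Refilling and buffering of the store were covered by 2 lists. Tmem203, an ER membrane protein linked to store calcium, had 10.3, 11.5 and 12.1 FPKM for WT, against 8.73, 8.56 and 9.79 FPKM for TG. The groups were apart, with a difference of -0.32 (standard error 0.0907, limma adjusted p = 0.786), which was -0.28 after the correction for gene length and -0.27 without WT3. It rested on 118 to 193 reads per library in a gene of 854 exon bases. The ER calcium pump Atp2a2, the most abundant of the 7 pump genes and regulators tested, had 146.6 ± 4.41 FPKM for WT and 154.7 ± 13.5 FPKM for TG (SD, n = 3 each). Among 11 calcium-binding and chaperone genes of the ER lumen, none had an unadjusted p under 0.05, and Calr, the main calcium buffer, had 80.3 ± 5.10 and 82.0 ± 6.57 FPKM (SD, n = 3 each). Pdia4, a chaperone, had the smallest p of these, with a difference of 0.195 (95% interval -0.07 to 0.46).

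Release is driven by Gq-coupled receptors and tuned by proteins that bind its channels. In 16 genes of Gq and phospholipase C input, 12 differences were above 0 and none had an unadjusted p under 0.05 in limma, with a median of 0.03. Without WT3, 9 of 16 were above 0, and after the correction for gene length 7 of 16. The most abundant was Rgs4, a brake on Gq signalling (48.5 ± 4.33 and 47.6 ± 4.90 FPKM in WT and TG mice, SD, n = 3 each). Htr2c, a serotonin receptor gene, had the smallest p (difference 0.46, 95% interval -0.13 to 1.05), and its FPKM was 7.62 and 10.3 in TG1 and TG2, the libraries with choroid plexus RNA, against 4.73 to 5.49 in the other 4 libraries. The part of that tissue in Htr2c was not tested. Among 16 regulators of IP3 receptors and IP3, 12 were above 0 with a median of 0.10, and none had an unadjusted p under 0.05 in limma. Without WT3, 14 of 16 were above 0, and after the correction for gene length 12 of 16. The scaffold gene Homer2 was the nearest (difference 0.23, 95% interval -0.03 to 0.497), and the IP3 kinase gene Itpka the most abundant, with 181 ± 17.1 and 178 ± 20.4 FPKM in WT and TG mice (SD, n = 3 each). The list of Ryr1 and ryanodine receptor couplers had 9 of 12 differences below 0, a median of -0.07 and no unadjusted p under 0.05 in limma. Without WT3, 11 of 12 were below 0, and after the correction for gene length 9 of 12. Fkbp1b, which stabilises the closed channel, had the smallest p there (difference -0.13, 95% interval -0.34 to 0.08), and Fkbp1a was the most abundant, with 185 ± 21.8 and 169 ± 7.29 FPKM (SD, n = 3 each).

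Apart from its return to the ER, calcium that leaves the cytosol passes to mitochondria or across the plasma membrane. In 12 genes of mitochondrial uptake, 10 differences were below 0 with a median of -0.09, and in 9 genes of plasma membrane export all 9 were above 0 with a median of 0.12, but no gene of either list had an unadjusted p under 0.05 in limma. Without WT3 these counts were 9 of 12 below 0 and 5 of 9 above 0, with medians of -0.03 and 0.00096. After the correction for gene length they were 10 of 12 and 7 of 9, with medians of -0.07 and 0.08. Vdac3, an outer membrane channel, had the smallest p of the first list (difference -0.20, 95% interval -0.45 to 0.05), and Vdac1 was its most abundant gene, at 182 ± 15.1 and 171 ± 4.55 FPKM (SD, n = 3 each). In the second, the pump gene Atp2b3 had the smallest p (difference 0.36, 95% interval -0.10 to 0.82), and the exchanger gene Slc8a2 was the most abundant, at 83.7 ± 12.3 and 86.3 ± 8.65 FPKM (SD, n = 3 each). Calcineurin, the phosphatase that carries store-operated signals to NFAT, was listed together with NFAT and Rcan genes. The median of the 10 genes tested was 0.05. The 4 differences below 0 were those of the calcineurin genes Ppp3ca (-0.10), Ppp3cb (-0.09), Ppp3cc (-0.19) and Ppp3r1 (-0.17). The 6 above 0 were those of the NFAT and Rcan genes, and only Ppp3cc had an unadjusted p under 0.05 in limma. WT3 was the highest library in Ppp3ca, Ppp3cb and Ppp3r1, with 389 FPKM in Ppp3r1 against 282 and 298 in WT1 and WT2. Without WT3, 6 of 10 differences were above 0 with a median of 0.02. In that fit 1 gene was higher and 0 were lower at an unadjusted p under 0.05 in limma. After the correction for gene length, 6 of 10 were above 0, also with a median of 0.02. The catalytic subunit Ppp3cc had 6.11, 5.48 and 6.08 FPKM for WT, against 5.10, 5.16 and 5.14 FPKM for TG, all below the WT libraries. The difference was -0.19 (standard error 0.0817, limma adjusted p = 0.786). Its unadjusted p was above 0.05 without WT3 (difference -0.17) and without TG1 (-0.19), and under 0.05 after the correction for gene length (-0.18). The regulatory subunit Ppp3r1, the most abundant gene of the list, had 323 ± 57.8 and 284 ± 13.7 FPKM (SD, n = 3 each).

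Genes with the most similar course over the 6 libraries were sought for Stim1, Orai1 and Itpr1 among protein-coding genes whose FPKM averaged 5 or more. Ergic1, Fam120c and 1700025G04Rik ran closest to Stim1, each with a Pearson r of 0.99, and Sos1, Kdm2a and Mast2 ran closest to Itpr1, with r of 0.995, 0.99 and 0.99. For Stim1 and Itpr1, 487 and 462 of 7381 genes had an r over 0.9, so these courses were common. Sos1, for example, had 7.22, 7.29 and 6.14 FPKM for WT, against 8.49, 7.46 and 7.86 FPKM for TG, with WT3 the lowest and TG1 the highest as in Itpr1. Counting alone gives Orai1 a coefficient of variation of 7.42%, against 2.54% for Stim1 and 1.12% for Itpr1. The part of counting error in the next number was not tested. The course of Orai1 was rarer, with 17 of 7382 genes over 0.9. Tmem86a was closest to it (r = 0.97), with 7.82, 7.25 and 6.93 FPKM for WT, against 6.50, 9.96 and 7.57 FPKM for TG, followed by Zdhhc24 (r = 0.96) and Zscan26 (r = 0.95). The same libraries were the lowest and the highest in Tmem86a as in Orai1, TG1 and TG2. Such shared extremes, here and in Sos1, follow from choosing genes by their r and are no separate result.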

How the data were processed

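Hippocampal RNA-seq of 3 WT and 3 TG mice was analysed, with 1 deposited column per library and groups taken from the sample titles. The authors counted reads per gene with HTSeq and deposited FPKM values, computed from the count and the gene length. The labels name GRCm38 (mm10) as the build, and the aligner and the strand setting are not given in the sources used here. Methods and labels name different extraction and library kits. Of the gene identifiers, 54409 were found in a GRCm38 annotation (GENCODE M21), 53499 with the same start and end. FPKM scaled back by gene length and by a read total found for each library (15824455 to 18722180) gave whole reads for 100% of values above 0 (tolerance 0.05 reads). On that scale, 3 reads on 1 kb are an FPKM of 0.160 to 0.190. Intervals are 95% intervals, and reads without molecular identifiers cover counting error only.

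Since the values are FPKM, groups were tested with limma (version 3.58.1, R 4.3.3, lmFit, eBayes with trend) on log2(FPKM + 0.1), mean FPKM of at least 0.1, Benjamini-Hochberg adjustment over all genes tested, threshold 0.05, without covariate or block. Such differences understate those of low genes. The script was tested on simulated data. The 10 genes and the role lists were chosen with earlier results of these data known. Named were the 10 genes, the most abundant gene and the gene with the smallest p of each role list, every role gene with a mean FPKM of at least 1 and an unadjusted p under 0.05, and the 3 closest genes to Stim1, Orai1 and Itpr1. Other genes (Slc1a2, Xist, Ddx3y and genes overlapping the 10) serve as checks. The titles do not say whether equal numbers pair the mice. Deviations of same-numbered WT and TG libraries correlated at 0.01, 0.05 and 0.03 across genes, and those of other pairs at -0.05 to 0.02. Values this near 0 cannot decide whether mice were paired.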

Additional observations from a re-analysis of the deposited data

How the results depend on the processing

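Stim1, Stim2, Itpr1 and Itpr3 kept the sign of their difference under every alternative that gave a value (pseudocounts 1 and 0.01, filters, scalings, variance models, protein-coding genes only, voom on recovered reads, each library left out, replicate block and correction for gene length). Itpr3 has a mean FPKM under 1 and gave no value under the filter at 1. The smallest limma adjusted p of any of the 10 genes was 0.636, without WT2. Signs turned in Itpr2 (-0.026), Ryr2 (-0.015) and Ryr3 (-0.087) after the correction for gene length, and in Ryr3 (-0.0024) under quantile normalization. With 1 library left out, differences ranged from 0.04 to 0.26 for Stim1, -0.16 to -0.02 for Stim2, -0.034 to 0.23 for Orai1, -0.0037 to 0.16 for Orai2, -0.14 to 0.022 for Orai3, 0.16 to 0.295 for Itpr1, -0.011 to 0.15 for Itpr2, 0.28 to 0.64 for Itpr3, -0.062 to 0.30 for Ryr2 and -0.14 to 0.25 for Ryr3. The lower end was reached without WT3 for 7 genes. The Stim1 to Stim2 ratio ranged from 0.07 to 0.42, the Orai1 share from -0.306 to 1.37 percentage points, the Itpr1 share from -0.393 to 0.773, the Ryr3 share from -2.17 to -0.561, the STIM to ORAI ratio from -0.09 to -0.02 and the IP3 to ryanodine receptor ratio from -0.00097 to 0.24. The causes were not tested.

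Over all genes, 1 was higher and 1 lower at an adjusted p under 0.05. Higher genes were 0 with pseudocounts 1 and 0.01, without a filter, at a mean FPKM of at least 1, with protein-coding genes, with the replicate block and with voom, and 6 without the variance trend. Lower genes were 0 with both pseudocounts, without a filter, with protein-coding genes, with the block, with voom and after the length correction, and 3 without the variance trend. Leaving out 1 library gave 0 to 6 higher (6 without TG1) and 0 lower genes. Unadjusted, these limma fits called between 827 and 1543 genes. With the replicate block, for which the titles give no ground, 1244 genes had an unadjusted p under 0.05 in limma, against 1238 without it. Itpr1 differed by 0.24 with the block too (95% interval 0.01 to 0.47), and the limma adjusted p of every one of the 10 genes stayed above 0.05. Depth limits Orai1 and Itpr3 most, with means of 182 and 147 reads per library.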
